A study of Mus musculus with 6 samples.

Results

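The genes described here carry glucose into the cell, split it to pyruvate, exchange lactate, and pass pyruvate into the mitochondrion, together with 3 genes of glycogen. There are 40 of them, picked by gene symbol, among the 38293 genes of the count table. They were measured by RNA-seq of cardiac tissue from 6 mice, 14 days after myocardial infarction (MI), made by tying off the left anterior descending coronary artery for good. Zeb2 fl/fl mice, which the labels call WT, carry the floxed Zeb2 alleles without Cre (libraries Zeb2 fl/fl 1 to 3). Zeb2 cKO mice carry the same alleles with a Cre driven by the cardiac Myh6 promoter, so that recombination is aimed at cardiomyocytes (libraries Zeb2 cKO 1 to 3). All 6 mice were adult males of a backcrossed C57BL/6J strain, operated on at 8 to 10 weeks of age. The labels place the tissue in the border region of the infarct, whereas the study's methods speak of the remote zone. No sham-operated heart was analysed here, so the values describe infarcted hearts only.

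As background, a heart muscle cell takes up glucose through the insulin-responsive carrier encoded by Slc2a4 (GLUT4) and the ubiquitous carrier encoded by Slc2a1 (GLUT1), and traps it by phosphorylation. Phosphofructokinase is the main control point of glycolysis, and fructose 2,6-bisphosphate, made and removed by the Pfkfb enzymes, activates it. Pyruvate is turned to lactate in the cytosol or enters the mitochondrion, where the pyruvate dehydrogenase complex, switched off by the Pdk kinases and on by the Pdp phosphatases, feeds it to the citric acid cycle. Many of these steps have a form typical of striated muscle and another found in most tissues, and the adult heart normally burns more fatty acid than glucose.

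In these hearts muscle forms were among the genes with the highest levels, and 0 of the genes described here passed the test between the genotypes. Levels are in CPM, a gene's counts relative to all counted reads of the library after TMM scaling, and levels of single genes are ranked against each other only per kilobase of exon. The highest of the 40 per kilobase were the aldolase Aldoa at 235 CPM per kilobase, the muscle enolase Eno3 at 196, the muscle phosphoglycerate mutase Pgam2 at 153, the pyruvate dehydrogenase subunit Pdha1 at 115 and the muscle glycogen phosphorylase Pygm at 110.3 (means of 6 libraries). The counts of the housekeeping enzymes Gapdh, Pgk1, Eno1 and Pgam1 are uncertain, as described below, so this ranking cannot place them. The brain-type aldolase Aldoc, with 6, 14 and 4 counts in Zeb2 fl/fl 1 to 3 and 8, 3 and 3 in Zeb2 cKO 1 to 3, was the lowest at 0.0443 CPM per kilobase and was the 1 gene of the 40 removed by the filter on low counts. Of the 39 tested, 0 passed an adjusted p of 0.05 (edgeR quasi-likelihood fit, adjusted after Benjamini and Hochberg, adjusted p from 0.957 to 0.999), as did 0.0% of the 14746 genes tested. At an unadjusted p under 0.05 the same test also called 0 of the 39, against 1.9% of all genes, and DESeq2 called 0 of them by either measure.

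Total counts ran from 37288174 to 51136331 per library, 60.5 to 67.0% of them from mitochondrially encoded genes. The library Zeb2 fl/fl 2 stood apart in these genes, so fold changes are given with and without it. It held the lowest level of the 6 libraries for 29 of the 39 tested genes and the highest for 3 (Pfkfb3, Slc16a3 and Pdk3), whereas 34.6% of all tested genes were lowest there. The median difference from a gene's mean over the libraries was −0.60 on the log2 scale in Zeb2 fl/fl 2 and 0.01 to 0.20 in the other 5. The 40 genes made up 0.849% of the counts outside the mitochondrial genome in Zeb2 fl/fl 2 and 1.29 to 1.39% in the other 5. The summed level of 12 cardiomyocyte markers was 36763 CPM there and 59526 to 72824 CPM in the others, and 11 of the 12 were lowest in that library. Myh6, the adult cardiac myosin heavy chain, stood at 8979, 2767 and 6733 CPM in Zeb2 fl/fl 1 to 3 and 7152, 7073 and 6961 CPM in Zeb2 cKO 1 to 3. In the same library the summed level of 10 fibroblast markers was 11854 CPM against 2029 to 2950 CPM in the others, and that of 10 macrophage markers was 888 CPM against 223 to 313 CPM, while 9 endothelial markers summed to 505 CPM against 612 to 716 CPM, with 6 of the 9 lowest and 3 highest in that library. The summed level of the 40 genes as a share of that of the 12 cardiomyocyte markers was 7.74% in Zeb2 fl/fl 2 and 7.08 to 7.72% elsewhere, so both sums were low together. The part of these marker levels in the differences below was not tested, and in tissue RNA fewer cells of a type and less RNA per cell cannot be told apart.

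**Figure D1:**
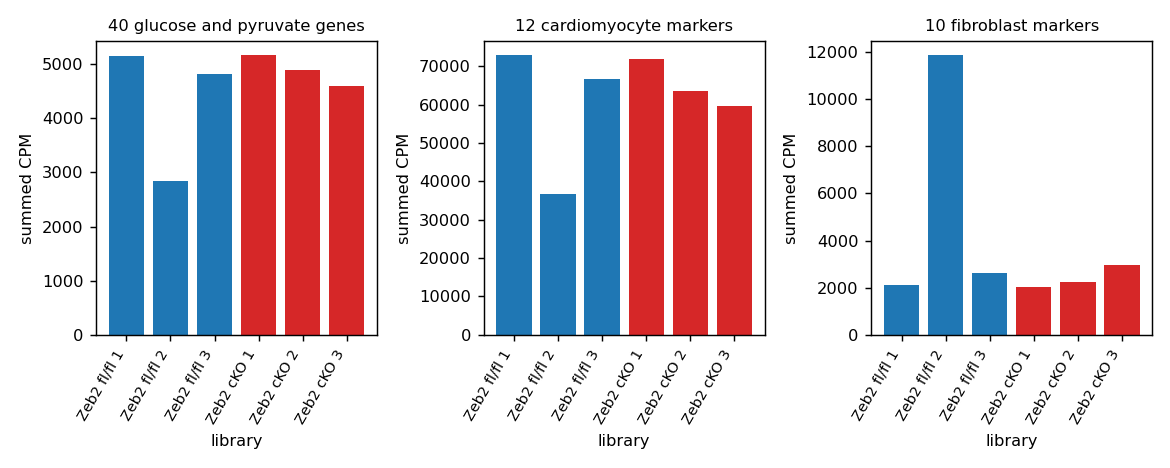
Summed CPM of the 40 glucose and pyruvate genes (left), 12 cardiomyocyte markers (middle) and 10 fibroblast markers (right), 1 bar per library, with Zeb2 fl/fl in blue and Zeb2 cKO in red. Zeb2 fl/fl 2 has the lowest bar in the left and middle panels (2845 and 36763 CPM) and the highest in the right panel (11854 CPM).

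Over the other 5 libraries the highest level of a gene was a median of 1.28 times its lowest, 30 of the 39 genes stayed under 1.5 times, and only Pfkfb1 (4.23 times) and Pdk4 (2.76 times) exceeded 2. With all 6 libraries the median log2 fold change of the 39 genes, Zeb2 cKO over Zeb2 fl/fl, was 0.18, with 32 above 0 and 7 below, beside a median of −0.01 and 48.6% above 0 for all genes tested. Without Zeb2 fl/fl 2 the median was 0.003, with 20 above 0 and 19 below, beside 50.9% above 0 for all genes. The predominance of positive values thus rested on 1 library. Groups did not overlap for 1 of the 39 genes, Ldha, against 6.36% of all genes tested in either direction and 3.39% higher in Zeb2 cKO.

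**Figure D2:**
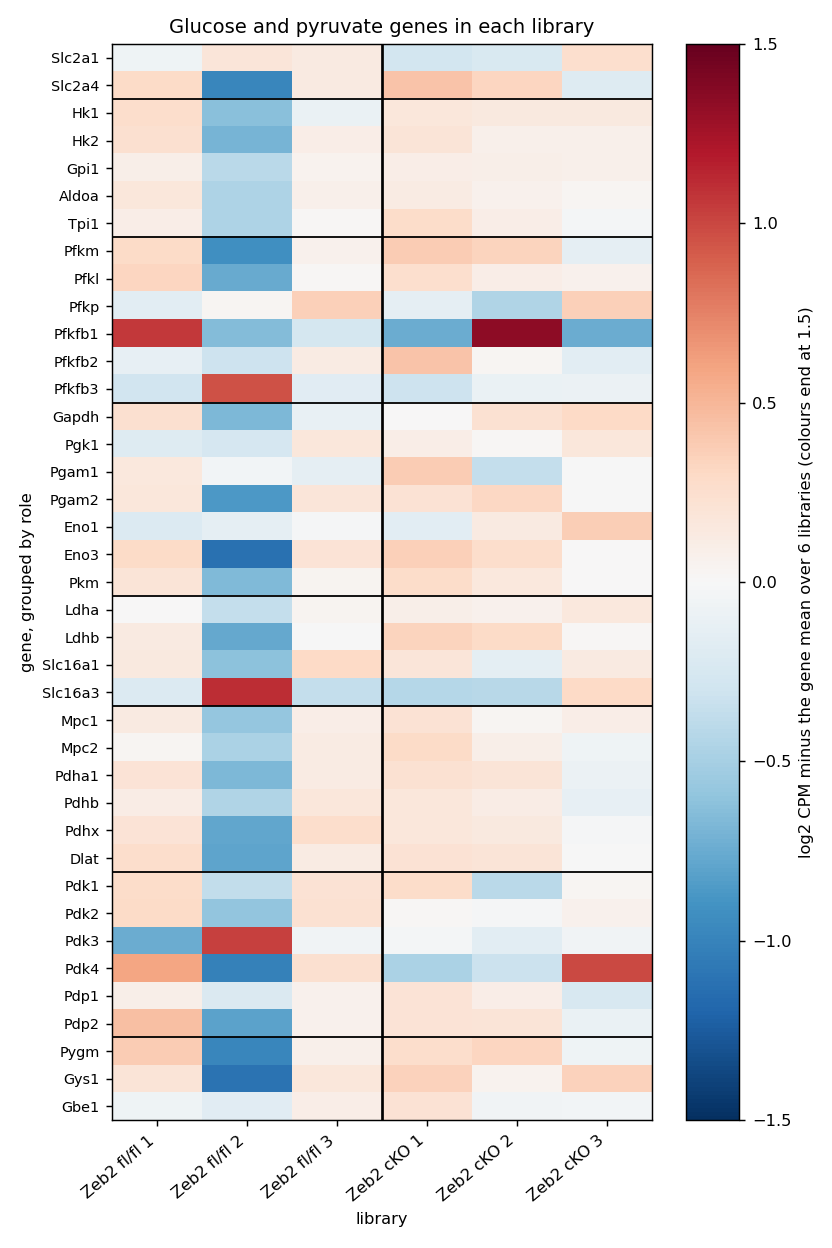
Each row is 1 of the 39 tested genes, grouped by role between the horizontal lines, and each column 1 library, with the colour giving log2 CPM minus the gene's mean over the 6 libraries. The column of Zeb2 fl/fl 2 is blue in most rows, with a median of −0.60, and red for Pfkfb3, Slc16a3 and Pdk3. Pfkfb1 and Pdk4 vary most among the other columns.

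The targeted gene did not separate the genotypes in whole tissue. Zeb2 was measured at 61.3, 116 and 71.9 CPM in Zeb2 fl/fl 1 to 3 and 59.6, 72.6 and 66.5 CPM in Zeb2 cKO 1 to 3. This gave a log2 fold change of −0.33 ± 0.25 (SE, adjusted p = 0.957, edgeR quasi-likelihood fit, adjusted after Benjamini and Hochberg) and −0.01 ± 0.12 without Zeb2 fl/fl 2. The groups overlapped, the highest value was that of Zeb2 fl/fl 2, and other cell types of the heart, in which Cre is not driven, also carry Zeb2 RNA, so this check does not test the labels. Errors of log2 fold changes below are standard errors, with 3 libraries in each group or, where Zeb2 fl/fl 2 is left out, 2 Zeb2 fl/fl and 3 Zeb2 cKO libraries, and errors of CPM are SD. None of the log2 fold changes given below for the 40 genes passed the test.

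Stretches of 3 promoters are shown because they belong to the muscle and the ubiquitous phosphoglycerate mutase (Pgam2 and Pgam1), a pair compared further on, and to Ldha, the 1 gene whose groups did not overlap. Each is the 250 bases before an annotated start, from RefSeq on GRCm38.p6, written 5′ to 3′ in the direction of the gene. Capitals mark CACCTG or its reverse complement CAGGTG, the E-box core that ZEB proteins are known to bind, and ACGTG or its reverse complement CACGT, the core recognised by hypoxia-inducible factors, with a longer capital run where matches overlap as CACGTG.
Pgam2 (chr11:5803797-5804046, minus strand): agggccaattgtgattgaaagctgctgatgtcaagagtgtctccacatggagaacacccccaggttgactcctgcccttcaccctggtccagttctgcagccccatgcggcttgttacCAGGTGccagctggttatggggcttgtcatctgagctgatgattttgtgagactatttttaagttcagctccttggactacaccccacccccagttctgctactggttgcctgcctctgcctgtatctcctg
Pgam1 (chr19:41911621-41911870, plus strand): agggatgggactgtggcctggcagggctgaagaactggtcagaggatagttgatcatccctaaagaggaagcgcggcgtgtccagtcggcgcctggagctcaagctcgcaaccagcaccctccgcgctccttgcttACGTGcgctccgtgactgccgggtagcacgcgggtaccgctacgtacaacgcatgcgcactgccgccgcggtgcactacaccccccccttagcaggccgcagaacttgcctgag
Ldha (chr7:46845554-46845803, plus strand): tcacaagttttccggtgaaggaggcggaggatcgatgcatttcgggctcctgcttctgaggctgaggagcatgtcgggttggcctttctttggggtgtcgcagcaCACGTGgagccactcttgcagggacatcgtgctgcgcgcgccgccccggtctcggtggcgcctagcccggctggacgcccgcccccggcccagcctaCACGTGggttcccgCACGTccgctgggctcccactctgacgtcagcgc
The stretch of Pgam2 held CAGGTG and no ACGTG, that of Pgam1 held ACGTG and no CACCTG on either strand, and that of Ldha held CACGTG at 2 places and CACGT at another. Another annotated Ldha start, further along the gene, has a stretch before it (chr7:46846832-46847081), not printed, with CACCTG and no ACGTG on either strand. Both Ldha stretches lie inside the Ldha locus given below. Promoter stretches were at hand for 38 of the 40 genes, in 58 windows. CACCTG on either strand was in 8 of the 58 windows (13.8%), against 17.2% of all 32851 windows of this length. ACGTG on either strand was in 21 of the 58 (36.2%), against 16.6% of all windows, and CACGTG, which contains it on both strands, was in 7 (12.1%), against 6.02%. TATAAA on either strand was in 1 (1.72%, that of Pfkfb1), against 12.4%. Genes with several starts gave several windows, and by gene ACGTG was in 17 of the 38. The windows were not matched for base composition. All of these are matches of letters, and binding was not measured here.

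Among the glucose carriers, the muscle and fat form was the more abundant per kilobase. Slc2a4 (GLUT4), the carrier that insulin and contraction bring to the cell surface, was measured at 134, 55.7 and 121 CPM in Zeb2 fl/fl 1 to 3 and 148, 137 and 95.8 CPM in Zeb2 cKO 1 to 3. Zeb2 fl/fl 2 was the lowest and Zeb2 cKO 3 the next lowest, so the groups overlapped (103 ± 41.8 against 127 ± 27.4 CPM), and the log2 fold change was 0.30 ± 0.34, or −0.002 ± 0.18 without Zeb2 fl/fl 2. Slc2a1 (GLUT1), which supplies basal uptake in most cells, ranged from 5.34 to 7.72 CPM, with Zeb2 fl/fl 2 inside the range of the others and a log2 fold change of −0.15 ± 0.18, or −0.09 ± 0.18 without that library. Per kilobase Slc2a4 made up 88.5 to 96.5% of the summed level of the pair in each library, the lowest share being that of Zeb2 fl/fl 2.

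In the first steps of glycolysis, Zeb2 fl/fl 2 gave the lowest value of every tested gene and the groups overlapped. Hexokinase 2 (Hk2), the insulin-regulated form of muscle and fat that phosphorylates glucose at the mitochondrial surface, was measured at 123, 64.1 and 111 CPM in Zeb2 fl/fl 1 to 3 and 119, 109.6 and 109 CPM in Zeb2 cKO 1 to 3. All libraries other than Zeb2 fl/fl 2 lay within 1.12 times of each other. Hexokinase 1 (Hk1), the form found in most tissues, was measured at 83.8, 45.3 and 65.0 CPM in Zeb2 fl/fl 1 to 3 and 78.6, 77.5 and 77.4 CPM in Zeb2 cKO 1 to 3, with Zeb2 fl/fl 2 again the lowest. Its log2 fold change of 0.27 ± 0.22 became 0.07 ± 0.12 without that library. Aldoa, which splits fructose 1,6-bisphosphate, stood at 761, 492 and 716 CPM in Zeb2 fl/fl 1 to 3 and 736, 707 and 691 CPM in Zeb2 cKO 1 to 3. The log2 fold change was 0.12 ± 0.21, or −0.05 ± 0.11 without Zeb2 fl/fl 2. The isomerases Gpi1 (74.6 to 105 CPM) and Tpi1 (134 to 225 CPM) were also lowest in Zeb2 fl/fl 2, with log2 fold changes of 0.16 ± 0.16 and 0.22 ± 0.19, or 0.02 ± 0.09 and 0.07 ± 0.12 without it.

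Phosphofructokinase was mostly of the muscle form. Pfkm, the muscle subunit, was measured at 277, 120.0 and 238 CPM in Zeb2 fl/fl 1 to 3 and 295, 286 and 206 CPM in Zeb2 cKO 1 to 3, so that Zeb2 fl/fl 2 was lowest and Zeb2 cKO 3 lower than the 4 others. The group values were 212 ± 81.6 against 262 ± 48.7 CPM, with a log2 fold change of 0.31 ± 0.32, or 0.03 ± 0.17 without Zeb2 fl/fl 2. Pfkl, the liver subunit, was also lowest in Zeb2 fl/fl 2 and ranged from 25.9 to 54.6 CPM (log2 fold change 0.21 ± 0.26, or −0.04 ± 0.12 without it). Pfkp, the platelet subunit, did not share this pattern. It was measured at 37.5, 42.7 and 53.9 CPM in Zeb2 fl/fl 1 to 3 and 38.4, 30.8 and 53.9 CPM in Zeb2 cKO 1 to 3, highest in Zeb2 fl/fl 3 and Zeb2 cKO 3 and within the range of the others in Zeb2 fl/fl 2, with a log2 fold change of −0.12 ± 0.24, or −0.15 ± 0.24 without it.

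The bifunctional Pfkfb enzymes, which set the level of fructose 2,6-bisphosphate, did not move together. Pfkfb2, the cardiac form, ranged from 62.0 to 103 CPM with its lowest value in Zeb2 fl/fl 2. Its log2 fold change of 0.21 ± 0.20 became 0.11 ± 0.18 without that library and 0.03 without Zeb2 cKO 1, the highest library. Pfkfb3, the inducible form of proliferating and inflammatory cells, was highest in that library, at 4.91, 11.7 and 5.34 CPM in Zeb2 fl/fl 1 to 3 and 4.86, 5.60 and 5.66 CPM in Zeb2 cKO 1 to 3. Its log2 fold change was −0.45 ± 0.34 with all libraries and 0.07 ± 0.13 without Zeb2 fl/fl 2, so the sign turned. Pfkfb1, known as the liver and skeletal muscle form, had the widest spread of the 39 over the libraries other than Zeb2 fl/fl 2 and was measured at 4.04, 1.23 and 1.61 CPM in Zeb2 fl/fl 1 to 3 and 1.16, 4.89 and 1.15 CPM in Zeb2 cKO 1 to 3. Zeb2 fl/fl 1 and Zeb2 cKO 2 were high and the other 4 low, without regard to genotype. Its log2 fold change was 0.06 ± 0.70, or −0.25 ± 0.68 without Zeb2 fl/fl 2, and the gene overlaps Apex2 on the opposite strand.

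In the later steps of glycolysis, the muscle forms Pgam2 and Eno3 and pyruvate kinase had the highest levels per kilobase, 153, 196 and 57.4 CPM per kilobase. Pgam2, which moves the phosphate of phosphoglycerate and is typical of heart and skeletal muscle, was measured at 139.7, 68.6 and 141 CPM in Zeb2 fl/fl 1 to 3 and 145, 154 and 124 CPM in Zeb2 cKO 1 to 3. This gave a log2 fold change of 0.28 ± 0.28, or 0.01 ± 0.12 without Zeb2 fl/fl 2. Eno3, the beta enolase of striated muscle, was measured at 395, 149.6 and 375 CPM in Zeb2 fl/fl 1 to 3 and 414, 389 and 326 CPM in Zeb2 cKO 1 to 3, less in Zeb2 fl/fl 2 than in any other library. Pkm, the pyruvate kinase gene that gives both the M1 and the M2 form, was measured at 320.4, 177 and 289 CPM in Zeb2 fl/fl 1 to 3 and 340.4, 314 and 282 CPM in Zeb2 cKO 1 to 3. Gene counts do not tell the forms apart. For Eno3 and Pkm the log2 fold changes were 0.30 ± 0.36 and 0.25 ± 0.24, and −0.03 ± 0.13 and 0.04 ± 0.12 without Zeb2 fl/fl 2.

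The other 4 enzymes of this segment, known as housekeeping genes, had low counts and near-identical copies in the genome. Gapdh stood at only 1.19 CPM per kilobase, Pgk1 at 1.92, Eno1 at 2.58 and Pgam1 at 0.815, levels below those of Slc2a4 (33.1) or Hk1 (8.35). Of the 75-base windows of their transcripts, 80.3% for Gapdh, 67.5% for Pgk1, 65.4% for Eno1 and 40.6% for Pgam1 occur unchanged in another annotated gene. For Gapdh the near-identical copies number 82 genes, 78 of them pseudogenes, and the copies in the table held 6852 counts over the 6 libraries where Gapdh itself held 1315. Such exact sharing was 24.8% or less for every other gene of the 40, Mpc1 and Pfkfb2 being the next. Near-identical copies (at least 75 bases at 95% identity) covered 76.8% of Ldhb, 71.2% of Pdhb and 65.5% of Pkm. They covered 55.4% of Gpi1 and 55.0% of Ldha, against 43.1% of Pgam1. Copies of Mpc1 held 10346 counts where Mpc1 held 1690, and those of Gpi1 96046 where Gpi1 held 26510. Copies of Ldhb and Ldha held 2443 and 690 counts where the genes held 41785 and 47075. How reads with several matches were counted is not given in the sources used here, so the levels of genes with near-identical copies may be affected. The levels of Gapdh, Pgk1, Eno1 and Pgam1, and ratios formed with them, are uncertain. Their log2 fold changes were 0.32 ± 0.24 for Gapdh, 0.18 ± 0.16 for Pgk1, 0.25 ± 0.16 for Eno1 and 0.04 ± 0.24 for Pgam1. Without Zeb2 fl/fl 2 they were 0.11 ± 0.16, 0.10 ± 0.15, 0.24 ± 0.16 and 0.02 ± 0.26 in the same order.

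**Figure D3:**
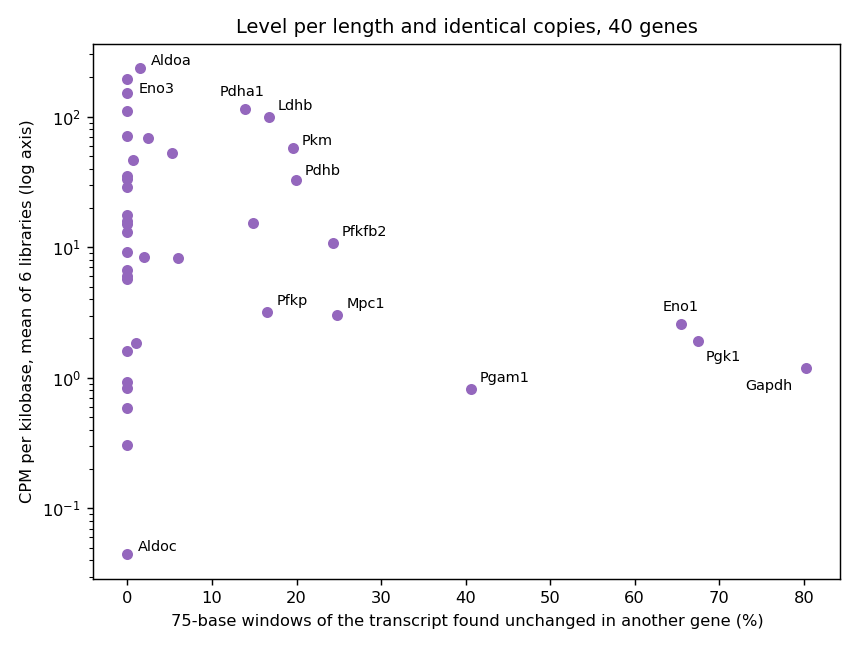
Level per kilobase of exon (mean of 6 libraries, log axis) of the 40 genes against the share of 75-base windows of the transcript that occur unchanged in another gene. Gapdh, Pgk1, Eno1 and Pgam1 lie at the right, between 40.6 and 80.3% and between 0.815 and 2.58 CPM per kilobase, whereas Aldoa and Eno3 lie at the upper left.

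Lactate dehydrogenase gave the 1 gene whose groups were apart. Ldha (chr7:46841475-46855627, GRCm38), the subunit that favours lactate formation, was measured at 175, 136 and 179 CPM in Zeb2 fl/fl 1 to 3 and 186, 182 and 194 CPM in Zeb2 cKO 1 to 3. Each Zeb2 cKO library was above each Zeb2 fl/fl library, by as little as 179 against 182 CPM. The group values were 163 ± 23.9 against 187 ± 6.12 CPM, with a log2 fold change of 0.20 ± 0.16 (adjusted p = 0.957, edgeR quasi-likelihood fit, adjusted after Benjamini and Hochberg). Without Zeb2 fl/fl 2 it was 0.09 ± 0.10 and the groups were still apart, in a comparison where 15.5% of all tested genes had groups apart. Ldhb, the heart subunit that favours lactate oxidation, was measured at 166, 89.0 and 150.5 CPM in Zeb2 fl/fl 1 to 3 and 190.5, 186 and 154 CPM in Zeb2 cKO 1 to 3. Its log2 fold change was 0.39 ± 0.25, or 0.16 ± 0.13 without Zeb2 fl/fl 2.

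The carriers of lactate across the cell membrane differed in where they were highest. Slc16a1 (MCT1), the carrier of oxidative muscle that takes lactate up, was measured at 138, 81.9 and 153 CPM in Zeb2 fl/fl 1 to 3 and 142, 113 and 138 CPM in Zeb2 cKO 1 to 3. Slc16a3 (MCT4), the carrier of glycolytic cells that releases lactate, was low throughout, at 1.30, 3.24 and 1.17 CPM in Zeb2 fl/fl 1 to 3 and 1.12, 1.13 and 1.84 CPM in Zeb2 cKO 1 to 3. Zeb2 fl/fl 2 was thus the lowest library for the former and the highest for the latter, and without it the log2 fold changes went from 0.07 ± 0.25 to −0.15 ± 0.13 for Slc16a1 and from −0.48 ± 0.44 to 0.15 ± 0.29 for Slc16a3.

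Entry of pyruvate into the mitochondrion was measured through 6 genes, each lowest in Zeb2 fl/fl 2. Pdha1, the catalytic E1 alpha subunit of pyruvate dehydrogenase, was measured at 487, 265 and 459 CPM in Zeb2 fl/fl 1 to 3 and 492, 482 and 397 CPM in Zeb2 cKO 1 to 3. Its partner Pdhb ranged from 91.1 to 140.2 CPM, the acetyltransferase core Dlat from 97.0 to 202 CPM and the binding protein Pdhx from 33.6 to 69.2 CPM. The carriers of the inner membrane, Mpc1 and Mpc2, ranged from 4.15 to 7.23 and 47.8 to 81.5 CPM. Their log2 fold changes lay between 0.09 (Pdhb) and 0.20 (Dlat) with all libraries, and between −0.12 (Pdhx) and 0.04 (Mpc2) without Zeb2 fl/fl 2. In the latter comparison the Pdhx groups did not overlap, with Zeb2 cKO the lower, as for 7.22% of all genes.

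Among the kinases that switch off pyruvate dehydrogenase, Pdk4 varied most between single hearts. Pdk4 (chr6:5483351-5496309, GRCm38), the kinase that fasting and fatty acids induce in heart and muscle, was measured at 221, 73.0 and 174 CPM in Zeb2 fl/fl 1 to 3 and 106, 117 and 292 CPM in Zeb2 cKO 1 to 3. Zeb2 cKO 3 was the highest and Zeb2 fl/fl 2 the lowest, and the log2 fold change of 0.14 ± 0.52 became −0.20 ± 0.42 without the latter. Pdk1, the form that hypoxia induces, was measured at 147, 93.8 and 141 CPM in Zeb2 fl/fl 1 to 3 and 147, 91.5 and 123 CPM in Zeb2 cKO 1 to 3, low in both Zeb2 fl/fl 2 and Zeb2 cKO 2. Pdk3, the scarcest form, was highest in Zeb2 fl/fl 2 and lay at 1.33, 4.51 and 2.14 CPM in Zeb2 fl/fl 1 to 3 and 2.18, 1.98 and 2.14 CPM in Zeb2 cKO 1 to 3. Log2 fold changes were −0.07 ± 0.24 for Pdk1 and −0.34 ± 0.42 for Pdk3, and −0.25 ± 0.19 and 0.28 ± 0.24 without Zeb2 fl/fl 2.

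Pdk2, the form found in most tissues, was the 1 gene of the 40 that crossed an unadjusted p of 0.05 when Zeb2 fl/fl 2 was left out. It was measured at 49.6, 26.8 and 47.7 CPM in Zeb2 fl/fl 1 to 3 and 41.2, 40.2 and 42.5 CPM in Zeb2 cKO 1 to 3. With all libraries the log2 fold change was −0.003 ± 0.23, and without Zeb2 fl/fl 2 it was −0.23 ± 0.09 (unadjusted p = 0.0316, adjusted p = 0.9997, edgeR quasi-likelihood fit, adjusted after Benjamini and Hochberg). The remaining Zeb2 fl/fl values then lay above all Zeb2 cKO values, but so they did, in that direction, for 7.22% of all genes, and 1.08% of all genes passed an unadjusted p of 0.05 in that direction. The phosphatases that reverse the kinases, Pdp1 (22.9 to 31.2 CPM) and Pdp2 (5.08 to 12.1 CPM), had log2 fold changes of 0.05 ± 0.16 and 0.11 ± 0.30, which turned to −0.04 ± 0.14 and −0.16 ± 0.16 without Zeb2 fl/fl 2.

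Of the glycogen genes, Pygm, the muscle phosphorylase that releases glucose 1-phosphate, was measured at 442, 173 and 358 CPM in Zeb2 fl/fl 1 to 3 and 407, 424 and 325 CPM in Zeb2 cKO 1 to 3. Its log2 fold change was 0.25 ± 0.34, or −0.05 ± 0.16 without Zeb2 fl/fl 2. Gys1, the muscle glycogen synthase, was measured at 43.2, 17.4 and 42.3 CPM in Zeb2 fl/fl 1 to 3 and 47.9, 39.2 and 48.0 CPM in Zeb2 cKO 1 to 3. It had the largest log2 fold change above 0 of the 39 genes, 0.39 ± 0.33, which was 0.08 ± 0.12 without Zeb2 fl/fl 2. In both genes that library lay lowest and the groups overlapped. Gbe1, the branching enzyme, ranged only from 27.3 to 35.5 CPM, and its log2 fold change was 0.08 ± 0.13, or 0.02 ± 0.12 without Zeb2 fl/fl 2.

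**Figure D4:**
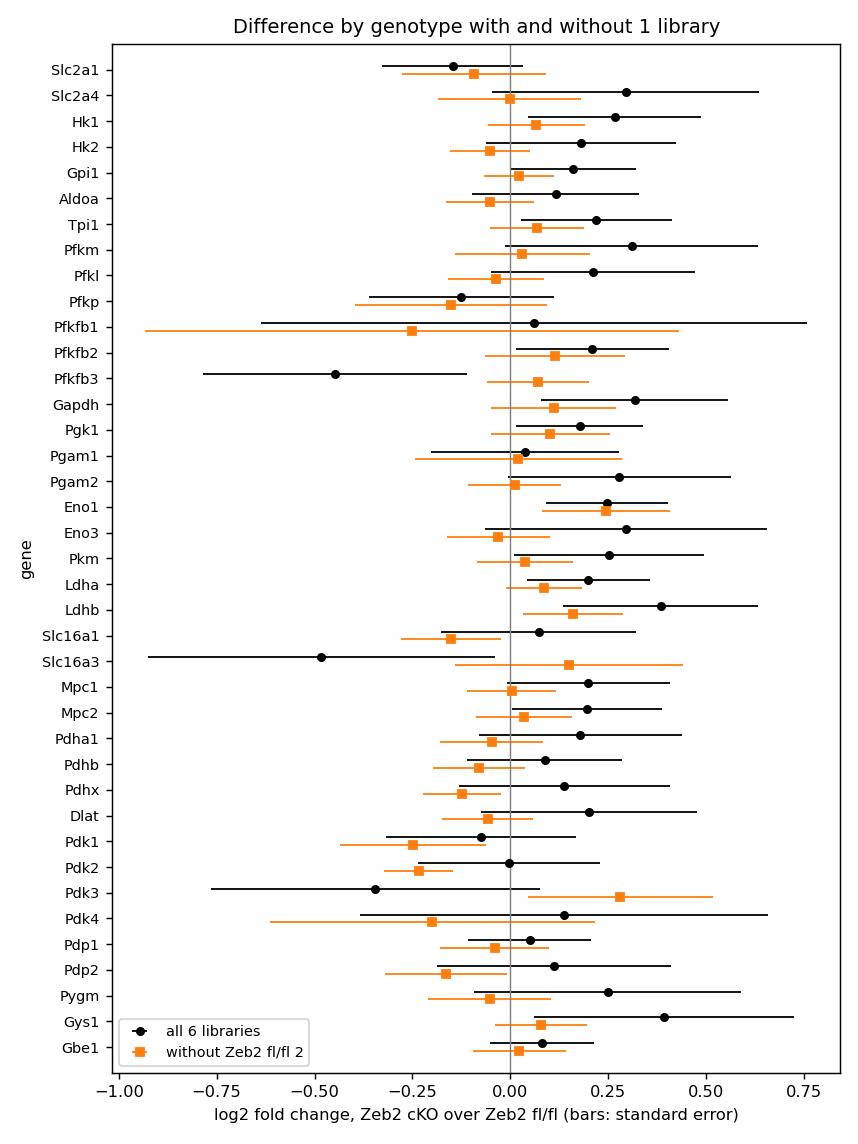
Log2 fold change of each tested gene, Zeb2 cKO over Zeb2 fl/fl, with all 6 libraries (black circles) and without Zeb2 fl/fl 2 (orange squares); bars are standard errors. With all libraries 32 of 39 points lie above 0, and without that library 20 do.

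Leaving out each other library in turn gave further sets of calls, all with 0 of the 39 genes past an adjusted p of 0.05 in the edgeR test. The median log2 fold change of the 39 genes was 0.27 without Zeb2 fl/fl 1, 0.27 without Zeb2 fl/fl 3 and 0.14, 0.20 and 0.20 without Zeb2 cKO 1, 2 and 3. Without Zeb2 fl/fl 1, Hk1 and Gapdh were higher in Zeb2 cKO at an unadjusted p of 0.0397 and 0.0470 in the edgeR test, 2 of the 39, where 2.04% of all genes were. Without Zeb2 cKO 1 the same edgeR test gave an unadjusted p of 0.0457 for Eno1, 1 of the 39, where 0.5% of all genes passed in that direction. Groups did not overlap for 6 of the 39 genes without Zeb2 fl/fl 1 (23.0% of all genes), for 3 without Zeb2 fl/fl 2 (15.5%), for 3 without Zeb2 fl/fl 3 (13.2%), for 2 without Zeb2 cKO 1 (10.9%), for 3 without Zeb2 cKO 2 (11.6%) and for 9 without Zeb2 cKO 3 (22.6%). The last set held Slc2a4, Pfkm, Pgam2, Tpi1, Ldha, Ldhb and Pdp1 on the higher side and Slc2a1 and Slc16a3 on the lower.

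Muscle or heart forms were then set against the other form of the same step, as log2 ratios of counts within a library, in 10 pairs. No pair passed the test between the genotypes, as the groups overlapped in all 10, and exact permutation tests (two-sided, 3 against 3, where 0.1 is the smallest p that can be reached) gave p from 0.3 to 0.9, or 0.714 to 0.9 after Benjamini-Hochberg adjustment over the 10 pairs. Zeb2 fl/fl 2 had the lowest ratio in 8 of them, the exceptions being Hk2 to Hk1 and Pfkm to Pfkl, where Zeb2 cKO 3 was lowest. Of the 9 genes counted as muscle or heart forms, 9 were lowest in Zeb2 fl/fl 2 (median difference from the gene mean −0.77, log2), and of 9 tested other forms 3 were lowest and 2 highest there (median −0.04). Ldha, the muscle subunit, was counted among the other forms as the partner of the heart subunit Ldhb, and was 1 of those 3.

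Single pairs show how wide the ratios spread. The log2 ratio of Slc2a4 to Slc2a1 was 4.44, 2.93 and 4.08 in Zeb2 fl/fl 1 to 3 and 4.79, 4.63 and 3.63 in Zeb2 cKO 1 to 3, a difference of 0.53 that was 0.09 without Zeb2 fl/fl 2. For Slc16a1 to Slc16a3 it was 6.71, 4.66 and 7.01 in Zeb2 fl/fl 1 to 3 and 6.97, 6.63 and 6.22 in Zeb2 cKO 1 to 3, and the difference turned from 0.48 to −0.26. In both pairs Zeb2 fl/fl 2 had the lowest ratio, as in 6 others of the 10. The heart to muscle ratio of lactate dehydrogenase, Ldhb to Ldha, was −0.07, −0.61 and −0.25 in Zeb2 fl/fl 1 to 3 and 0.04, 0.03 and −0.34 in Zeb2 cKO 1 to 3, and Ldhb made up 58.0 to 68.4% of the pair per kilobase. The ratio of Hk2 to Hk1 was the steadiest, at 0.55, 0.50 and 0.77 in Zeb2 fl/fl 1 to 3 and 0.59, 0.50 and 0.50 in Zeb2 cKO 1 to 3, with Hk2 at 66.9 to 71.0% of the pair per kilobase. The shares of Ldhb and Hk2 depend on the exon lengths used, 1570, 3310, 5969 and 8532 bases for Ldhb, Ldha, Hk2 and Hk1. The longest coding transcripts have 1304, 1815, 5513 and 4278 bases in the same order, and with these both shares would be lower. Differences of the other pairs were 0.10 for Pfkm to Pfkl, 0.53 for Pfkm to Pfkp, 0.53 for Pfkfb2 to Pfkfb3, 1.11 for Aldoa to Aldoc, 0.34 for Pgam2 to Pgam1 and 0.18 for Eno3 to Eno1. Without Zeb2 fl/fl 2 they were 0.05, 0.19, 0.03, 0.51, 0.02 and −0.27 in the same order. The last of these pairs and the one before it involve the uncertain counts of Eno1 and Pgam1, and that of Aldoa rests on 3 to 14 counts of Aldoc.

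**Figure D5:**
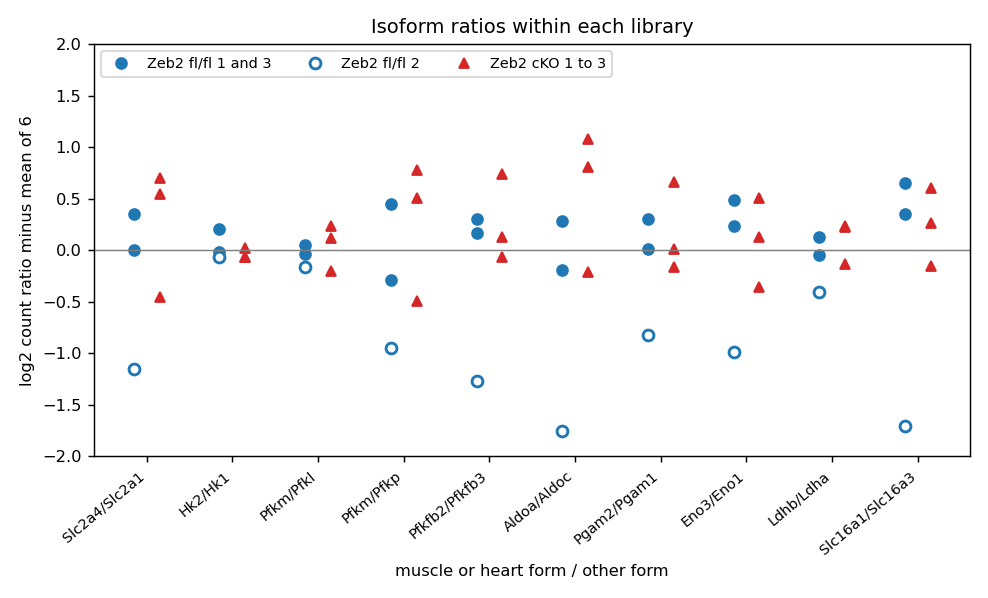
Log2 count ratio of the muscle or heart form to the other form in each library, minus the mean of the 6 libraries, for 10 pairs. Zeb2 fl/fl 2 (open circles) is lowest in 8 of the 10 pairs, while Zeb2 fl/fl 1 and 3 (filled circles) and Zeb2 cKO (triangles) overlap in all.

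Around these genes, 71 others of glucose, glycogen, pentose phosphate, hexosamine and fructose metabolism and of their regulation were listed, and 67 were tested. Their median log2 fold change was 0.07, with 41 above 0 and 26 below, beside 48.6% above 0 for all genes. Without Zeb2 fl/fl 2 it was −0.012, with 32 above 0 and 36 below (68 tested), so this lean to positive values was not kept. With all libraries, groups were apart for 4.48% of the 67 genes, against 6.36% of all genes. At an unadjusted p under 0.05 the edgeR test called 1 of the 67, against 1.9% of all genes, and at an adjusted p of 0.05 it called 0. That 1 gene was Txnip, which encodes a thioredoxin-binding protein that restrains glucose uptake and whose RNA rises with glucose. Txnip was measured at 324, 349 and 306 CPM in Zeb2 fl/fl 1 to 3 and 149.9, 212 and 256 CPM in Zeb2 cKO 1 to 3, so every Zeb2 cKO heart lay below every Zeb2 fl/fl heart. The group values were 327 ± 21.8 against 206 ± 53.5 CPM, with a log2 fold change of −0.66 ± 0.22 (unadjusted p = 0.0195, adjusted p = 0.957, edgeR quasi-likelihood fit, adjusted after Benjamini and Hochberg). Zeb2 fl/fl 2 did not decide this value, which was −0.61 ± 0.21 without it, but without Zeb2 cKO 1 or Zeb2 cKO 2 the unadjusted p of the same test was 0.0567 or 0.0538.

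The next of these genes by p were Tigar, Bpgm and Pgm2. Tigar, which removes fructose 2,6-bisphosphate and so slows glycolysis, was measured at 24.0, 17.2 and 24.8 CPM in Zeb2 fl/fl 1 to 3 and 29.5, 25.1 and 27.8 CPM in Zeb2 cKO 1 to 3. Its groups were apart, with a log2 fold change of 0.32 ± 0.16, or 0.18 ± 0.11 without Zeb2 fl/fl 2. Bpgm, which makes 2,3-bisphosphoglycerate, ranged from 6.72 to 9.87 CPM (log2 fold change 0.27 ± 0.14, or 0.24 ± 0.15 without Zeb2 fl/fl 2). Pgm2, of the phosphoglucomutase family, ranged from 3.70 to 7.13 CPM and was highest in Zeb2 fl/fl 2 (log2 fold change −0.40 ± 0.23, or −0.12 ± 0.15 without it).

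The markers of the labelled tissue were present, as the 12 cardiomyocyte genes summed to 36763 CPM or more in every library, of which Ttn, a very long gene, gave 22884 CPM or more. Median log2 fold changes of the marker lists were 0.16 for cardiomyocytes, −1.08 for fibroblasts, −0.86 for macrophages, 0.15 for endothelium, 0.18 for smooth muscle, −0.78 for neutrophils (3 of 4 tested) and −0.05 for red cells. Without Zeb2 fl/fl 2 they were −0.10, 0.01, 0.03, 0.02, 0.12, −0.89 and −0.06, and no marker passed an adjusted p of 0.05. The neutrophil list summed to only 1.45 to 4.83 CPM, with 4 to 24 counts of S100a8 and 7 to 43 of S100a9, so its median rests on few counts. Col1a1, a fibroblast collagen, was measured at 122, 725 and 129 CPM in Zeb2 fl/fl 1 to 3 and 85.4, 106 and 161 CPM in Zeb2 cKO 1 to 3, and Postn, of activated fibroblasts, ranged from 138 to 985 CPM. The macrophage genes Cd68 (3.24 to 16.0 CPM) and Csf1r (31.1 to 78.8 CPM) were likewise highest in Zeb2 fl/fl 2, and the endothelial genes Pecam1 (73.6 to 104 CPM) and Cdh5 (71.5 to 129 CPM) lowest there, unlike Emcn, Vwf and Tek of the same list, which were highest there. Tnnt2, of cardiomyocytes, ranged from 704 to 1513 CPM and Hbb-bs, of red cells, from 92.3 to 185 CPM. Adipoq of fat (0.0456 to 0.4996 CPM) and Myh4 and Tnni2 of fast skeletal muscle (0.0228 to 0.0799 and 0.156 to 0.380 CPM) were near 0 in every library. The list of 5 fat genes summed to 0.342 to 2.90 CPM (1 tested, Cfd). Its log2 fold change of 1.28 was 0.97 without Zeb2 fl/fl 2 and 0.55 without Zeb2 cKO 1. The list of 9 skeletal muscle genes summed to 0.850 to 1.94 CPM (2 tested, median 0.47, or 0.74 without Zeb2 fl/fl 2). Of these 2, Tnni2 had groups apart, on 6 to 19 counts per library.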

How the data were processed

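RNA-seq libraries of 3 hearts labelled WT (here Zeb2 fl/fl) and 3 labelled Zeb2 cKO were compared, with groups and replicate numbers from the sample labels. The authors deposited raw read counts per gene, made from rRNA-depleted stranded libraries with a STAR workflow on Gencode M4 (GRCm38). The STAR version, the strand option and the treatment of reads with several matches are not given in the sources used here. Every count column was matched to 1 library, and 0 were left over. DESeq 1.2, named in the submitters' processing notes, was not used here.

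Symbols, loci and transcripts came from Gencode M21. Counts were scaled by TMM and filtered by filterByExpr with a minimum count of 10 in edgeR 4.0.16 (R 4.3.3). Genotype was tested with glmQLFit and glmQLFTest, with Benjamini-Hochberg adjustment over the 14746 genes kept. Isoform ratios, with 0.5 added to each count, were tested by exact permutation. BLAST 2.17.0 was used to find near-identical copies over at least 75 bases at 95% identity, and unchanged 75-base windows were counted. The tests were checked on simulated counts. Alternatives were RLE factors, no filter, DESeq2 1.42.0, a replicate block, no mitochondrially encoded genes, 10 counts added in ratios, and leaving out each library. The 40 genes, the other pathway genes, the marker lists and the pairs were chosen with earlier results of these data known. The text names Zeb2, the 40 genes, the defining markers and, of the other pathway genes, those with an unadjusted p under 0.05 or, where fewer than 4 have one, the 4 with the smallest p. Each library comes from 1 mouse, so p-values measure the spread between mice of 1 experiment.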

Additional observations from a re-analysis of the deposited data

How the results depend on the processing

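The 6 libraries limit the comparison: 1 Zeb2 fl/fl library stood apart, and the counts of 4 housekeeping enzymes are uncertain, since the treatment of shared reads is not given. Counts of other genes with near-identical copies may be affected too. Under RLE factors, no filter, DESeq2, the replicate block and without mitochondrially encoded genes, 0 of the 40 genes passed an adjusted p of 0.05, as with each library left out. Without the filter the genes with groups apart numbered 2 (Gpi1 and Ldha), where 6.39% of all genes had groups apart, and 2 other pathway genes passed an unadjusted p of 0.05, where 2.49% of all genes did. With 1 library left out, the genes at an unadjusted p under 0.05 numbered 0 to 2 on the higher side and 0 to 1 on the lower, the genes with groups apart 2 to 9, the other pathway genes at an unadjusted p under 0.05 0 to 2, and the median log2 fold change ran from 0.0034 to 0.27.

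Samples with the same number did not pair: deviations of same-numbered libraries correlated at 0.088, −0.14 and −0.087, and the animals differ. The replicate block gave 0 calls among the 40 genes, a median of 0.20 and no new call, and groups apart cannot be counted under it. It turned Pfkfb1 to −0.13 and Pdk2 to 0.047, and Pdk2 was 0.016 without the filter and 0.0015 with DESeq2. The cause was not tested.

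Signs turned with 1 library left out, mostly Zeb2 fl/fl 2, for these log2 fold changes, given as ranges: Slc2a4 −0.0015 to 0.53, Hk2 −0.052 to 0.36, Aldoa −0.051 to 0.24, Pfkl −0.036 to 0.46, Pfkp −0.37 to 0.048, Pfkfb1 −0.98 to 0.75, Pfkfb3 −0.66 to 0.070, Pgam1 −0.17 to 0.20, Eno3 −0.030 to 0.52, Slc16a1 −0.15 to 0.25, Slc16a3 −0.76 to 0.15, Pdha1 −0.047 to 0.34, Pdhb −0.080 to 0.20, Pdhx −0.12 to 0.31, Dlat −0.057 to 0.40, Pdk1 −0.25 to 0.093, Pdk2 −0.23 to 0.15, Pdk3 −0.66 to 0.28, Pdk4 −0.49 to 0.48, Pdp1 −0.046 to 0.17, Pdp2 −0.16 to 0.41, Pygm −0.052 to 0.54, Gbe1 −0.013 to 0.16. Differences of log2 ratios ran −0.13 to 0.0054 for Hk2 to Hk1, −0.27 to 0.47 for Eno3 to Eno1, −0.26 to 0.92 for Slc16a1 to Slc16a3, and medians of marker lists −0.097 to 0.38 for cardiomyocyte, −1.45 to 0.0084 for fibroblast, −1.21 to 0.029 for macrophage, −0.11 to 0.32 for smooth muscle, −0.17 to 0.066 for red cell. The median log2 fold change of the other pathway genes ran from −0.012 without Zeb2 fl/fl 2 to 0.14 without Zeb2 fl/fl 1.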
